A study of Mus musculus with 6 samples.

Results

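Adipokines are the hormones and other secreted proteins that fat cells release into the blood or onto neighbouring cells. The 10 adipokine genes described here are Adipoq, Lep, Retn, Rbp4, Agt, Apln, Nampt, Nrg4, Angptl4 and Fgf21. Members were found as every array probe whose transcript accession belongs to 1 of these genes in RefSeq, which gave 12 of the 55681 probes and 10 of the 21368 named genes on the array, with 1 probe for each of 8 genes and 2 each for Retn and Nrg4. The measured tissue was inguinal white adipose tissue (iWAT), the fat pad under the skin of the groin, from Zip13-KO mice and their WT littermates at 10 weeks of age. Zip13 (Slc39a13) encodes a zinc transporter of intracellular membranes. In the Zip13-KO mice, exons 6 to 8 of the gene were replaced by a neomycin cassette through targeting of R1 embryonic stem cells, so the deletion was carried by the whole animal and not by fat cells alone. Both genotypes had been crossed onto C57BL/6J for 7 generations or more and were fed powdered food, since the mutants lack some teeth. The labels gave neither the sex of each mouse nor its diet, which in the study was standard or high in fat, and they did not state whether an array held 1 animal. There were 3 arrays per genotype, and p values therefore measure only the spread between these 6 samples.

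White fat stores triglyceride and reports its state to the rest of the body through these proteins. Leptin informs the brain of the size of the fat store, adiponectin acts on liver, muscle and vessels through the receptors AdipoR1 and AdipoR2, and resistin and retinol binding protein 4 have been tied to insulin resistance in mice. Brown and beige fat cells, which burn fuel to make heat, secrete a partly different set, of which neuregulin 4 and FGF21 are the best known.

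Each array carried RNA of a single labelled sample, and a brighter spot meant more of the matching transcript. Values below are log2 of the background-corrected intensity, quantile normalized between the 6 arrays, so that a difference of 1 is a doubling. The median processed signal of an array was 39.2 to 40.6 intensity units in WT and 33.2 to 35.02 in Zip13-KO, and the share of spots well above background was 62.5% to 63.2% in WT and 58.8% to 60.4% in Zip13-KO. Slc39a13 was 11.30, 10.87 and 10.71 in WT and 6.76, 6.67 and 6.47 in Zip13-KO arrays, a log2 fold change of -4.33 (SE 0.17, adjusted p = 0.00133, limma). Where its probe lies relative to the deleted exons was not determined. The Y-linked genes Ddx3y and Eif2s3y were well above background on all 6 arrays and Xist on 0, which is the pattern of male tissue.

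Nrg4, Rbp4 and Retn were called higher in Zip13-KO iWAT, Retn only just, and no adipokine was called lower. The fitted changes of these called genes were 3.37-fold for Nrg4, 1.84-fold for Rbp4 and 1.51-fold for Retn. A gene was called when its Benjamini-Hochberg adjusted p from limma was under 0.05 over all 15307 genes tested and its change exceeded 1.5-fold, or 0.58 on the log2 scale. By this rule 3 of the 9 members tested were called higher and 0 lower, beside 10.4% of all genes tested called higher and 8.36% called lower. By adjusted p alone, 5 members were higher (Adipoq, Nampt, Nrg4, Rbp4 and Retn) and 0 were lower, beside 19.3% and 15.1% of all genes. These 5 were also the members in which every Zip13-KO array lay above every WT array, which held for 29.1% of all genes, while in 0 members did every Zip13-KO array lie below every WT array, as in 25.9% of all genes. The tenth member, Fgf21, did not pass the filter on dim probes, which asked for a signal well over background in all 3 replicates of 1 genotype or both. The median log2 fold change was 0.51 over the 9 members, or 0.33 without WT replicate 1, and 0.00 over all genes. The smallest two-sided p that exact permutation of the 6 arrays allows is 0.1.

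**Figure D1:**
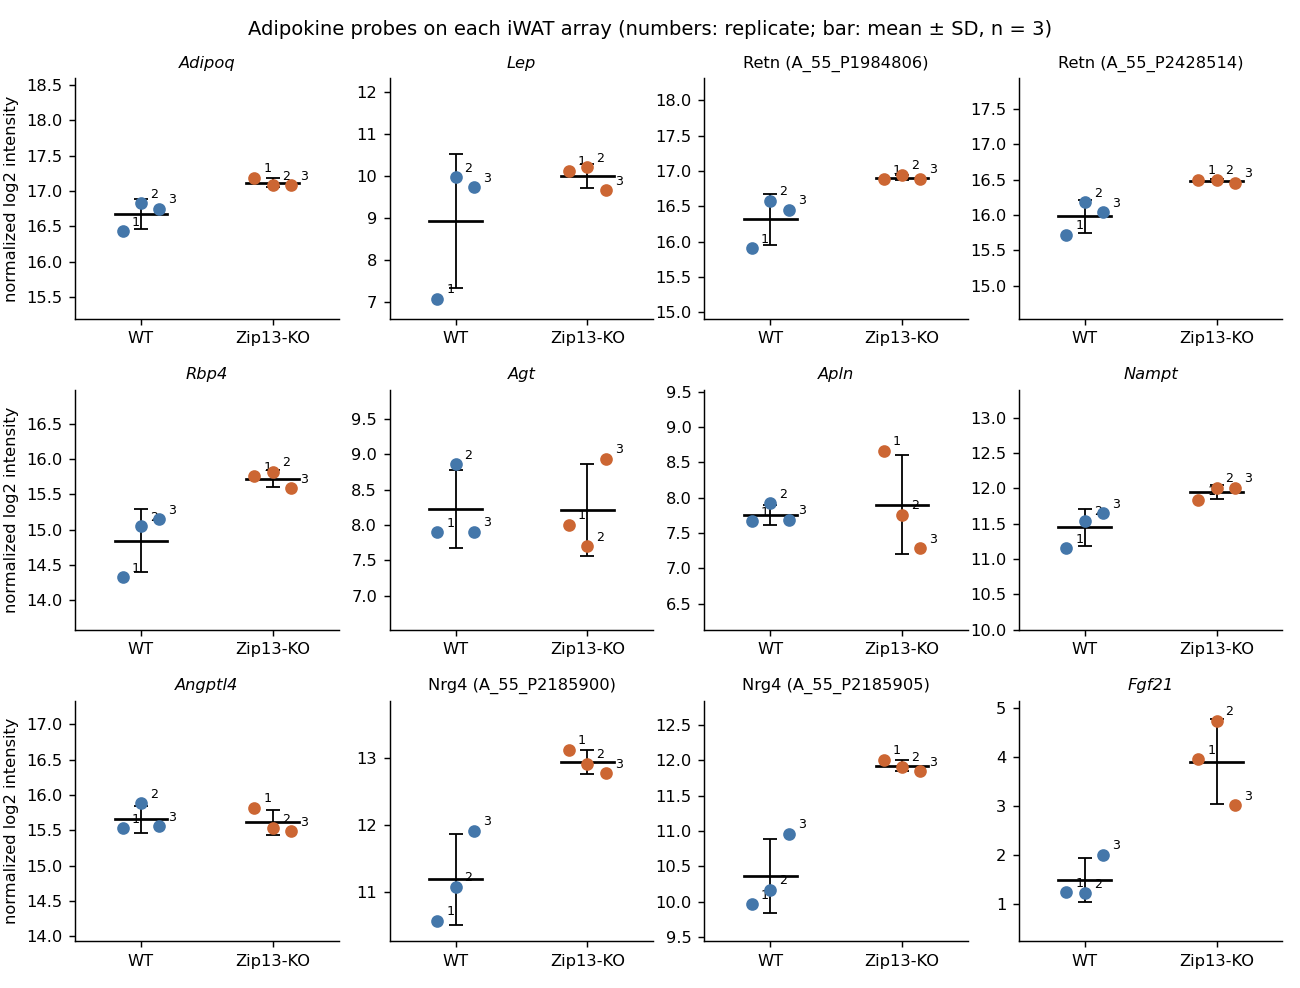
Normalized log2 intensity of the 12 adipokine probes, 1 panel each with its own y axis, in WT (blue) and Zip13-KO (orange) iWAT; points are arrays numbered by replicate, and bars are the mean ± SD of 3 arrays. Both Nrg4 probes lie clearly apart between genotypes, while Lep has 1 WT array at 7.07 and the other 5 arrays between 9.66 and 10.21.

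**Figure D2:**
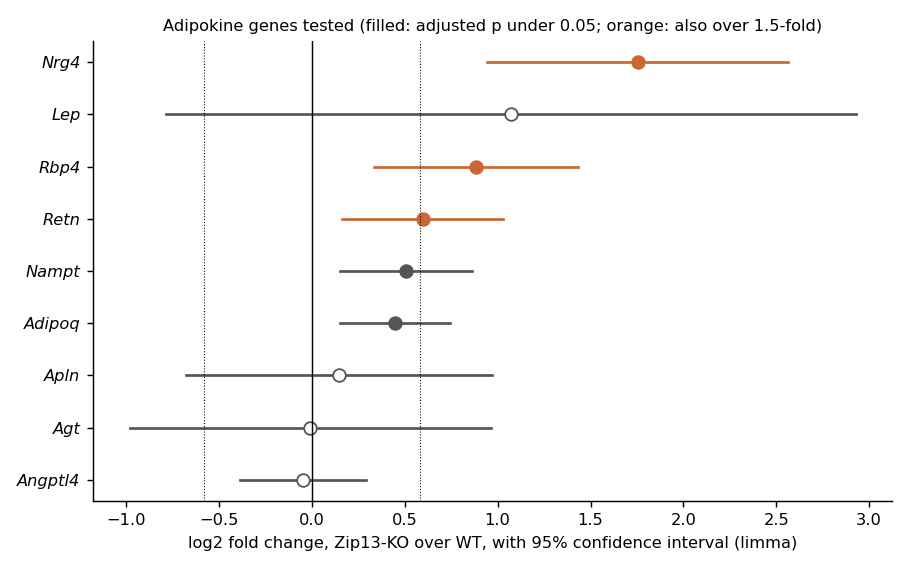
Log2 fold change (x axis, Zip13-KO over WT) of the 9 adipokine genes tested, with 95% confidence intervals from limma; filled points have an adjusted p under 0.05, orange ones also exceed 1.5-fold, and dotted lines mark 0.58 in each direction. The interval of Lep runs from -0.78 to 2.93, and that of Angptl4 from -0.39 to 0.29.

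The promoters of the called members and of Lep, the member that varied most between WT arrays, are shown to place the transcription factors discussed below. RefSeq windows from 250 bases before to 50 bases after a transcription start (GRCm38.p6) were found for 9 of the 10 members. Each window is written 5′ to 3′ on the strand of the gene, and capitals mark matches on either strand to TTGCNNAA, a core recognized by C/EBP factors, and to the TATA box TATAAA. The windows are Nrg4 at chr9:55283576-55283875 (minus strand), the matching 1 of 2 Rbp4 windows at chr19:38124762-38125061 (minus strand), Retn at chr8:3655520-3655819 (plus strand) and Lep at chr6:29059971-29060270 (plus strand).
Nrg4: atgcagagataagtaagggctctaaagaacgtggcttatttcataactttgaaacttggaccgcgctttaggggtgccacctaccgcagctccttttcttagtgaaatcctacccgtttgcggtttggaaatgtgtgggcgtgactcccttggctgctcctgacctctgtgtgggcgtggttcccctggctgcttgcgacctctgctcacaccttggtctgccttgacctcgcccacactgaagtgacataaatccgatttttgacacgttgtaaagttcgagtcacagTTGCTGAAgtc
Rbp4: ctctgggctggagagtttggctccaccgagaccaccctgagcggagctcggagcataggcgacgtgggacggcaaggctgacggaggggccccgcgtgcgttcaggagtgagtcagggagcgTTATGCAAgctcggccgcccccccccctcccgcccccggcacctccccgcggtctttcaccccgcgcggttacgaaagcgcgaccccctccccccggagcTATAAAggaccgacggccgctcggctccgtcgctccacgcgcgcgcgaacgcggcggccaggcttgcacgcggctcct
Retn: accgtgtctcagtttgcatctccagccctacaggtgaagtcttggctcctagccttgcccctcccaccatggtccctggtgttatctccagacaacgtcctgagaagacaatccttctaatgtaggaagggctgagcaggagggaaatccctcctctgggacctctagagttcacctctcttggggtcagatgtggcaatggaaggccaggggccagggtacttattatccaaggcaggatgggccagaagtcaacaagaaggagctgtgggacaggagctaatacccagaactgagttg
Lep: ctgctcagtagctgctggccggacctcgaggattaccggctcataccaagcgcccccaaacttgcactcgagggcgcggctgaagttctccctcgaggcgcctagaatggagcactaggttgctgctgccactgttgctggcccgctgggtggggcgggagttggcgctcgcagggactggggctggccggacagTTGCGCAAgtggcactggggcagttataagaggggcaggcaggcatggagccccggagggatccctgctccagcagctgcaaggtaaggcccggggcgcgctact

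The Lep window held the palindrome TTGCGCAA at bases -55 to -48 from the start, a sequence present in 0.183% of the 32851 windows of RefSeq promoters. The looser core TTGCNNAA, of which the palindrome is 1 form, was found in the windows of Lep, Nrg4 and Rbp4 and in 10.8% of all windows. In Nrg4 it lay after the start, at bases 39 to 46. A TATA box was found in the windows of Rbp4, Agt and Fgf21 and in 13.6% of all windows. The direct repeat of AGGTCA with a spacer of 1 base, bound by PPAR factors with their RXR partner, was in none of the member windows and in 0.0396% of all. A match is only a match of letters, and the lack of 1 in these windows says nothing of the factor.

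Adiponectin, resistin and leptin are the hormones made almost only by fat cells. Adipoq (NM_009605), which encodes adiponectin, was 16.43, 16.83 and 16.75 in WT and 17.19, 17.08 and 17.08 in Zip13-KO arrays. All Zip13-KO values lay above all WT values, and the difference of 0.45 (SE 0.12, 95% CI 0.15 to 0.74, adjusted p = 0.0341, limma) was 1.36-fold, below the 1.5-fold threshold. The adjusted p rose above 0.05 without WT replicate 3 (log2 fold change 0.49, adjusted p = 0.0539) and without Zip13-KO replicate 1, 2 or 3 (0.41, 0.47 and 0.46, adjusted p = 0.111, 0.0879 and 0.0802). It was also above 0.05 with no filter on dim probes (0.0557, limma), with a replicate block (0.0821, limma) and by the methods' t-test with Benjamini-Hochberg adjustment (0.0759).

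Retn (NM_001204959) encodes resistin. Its brighter probe, A_55_P1984806, was 15.91, 16.58 and 16.45 in WT and 16.88, 16.95 and 16.89 in Zip13-KO arrays, so that WT replicate 1 was the lowest and the Zip13-KO arrays were nearly alike. The log2 fold change was 0.60 (SE 0.18, 95% CI 0.16 to 1.03, adjusted p = 0.0456, limma), just past both thresholds. The second probe, A_55_P2428514, was 15.72, 16.18 and 16.04 in WT and 16.50, 16.50 and 16.46 in Zip13-KO arrays, with a difference of 0.50 (SE 0.13) that was 1.42-fold and short of the threshold. In the limma fit over the 33039 kept probes neither Retn probe was called. There the brighter probe had an adjusted p of 0.0538 and the second probe 0.0357. The call of Retn stood under 8 of 18 other settings. It was lost without WT replicate 1 (0.39, adjusted p = 0.0202) or WT replicate 3 (0.66, adjusted p = 0.063), and without Zip13-KO replicate 1 (0.61, adjusted p = 0.113), replicate 2 (0.57, adjusted p = 0.123) or replicate 3 (0.60, adjusted p = 0.105). Averaging the probes of the gene gave 0.55, also below the fold threshold.

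Lep (NM_008493), which encodes leptin, did not pass the test. It was 7.07, 9.97 and 9.72 in WT replicates 1 to 3 and 10.12, 10.21 and 9.66 in Zip13-KO replicates 1 to 3. WT replicate 1 stood far below the other 5 arrays, and the genotypes overlapped, since Zip13-KO replicate 3 lay below WT replicates 2 and 3. The fitted difference was 1.07 (SE 0.76, 95% CI -0.78 to 2.93, adjusted p = 0.307, limma; exact permutation test, two-sided p = 0.3), or 2.10-fold. Without WT replicate 1 it was 0.15 (SE 0.19, adjusted p = 0.583), and without WT replicate 2 or 3 it was 1.60 or 1.47. The probe of Lep is printed in 10 spots on each array, and on WT replicate 1 these spanned 6.97 to 7.18, with an SD of 0.06. The low value of that array was therefore shared by all 10 of its spots. In intensity units the processed signal of Lep was 144 in WT replicate 1, against 1102 and 930 in the other WT arrays and 1047, 1101 and 766 in Zip13-KO.

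**Figure D3:**
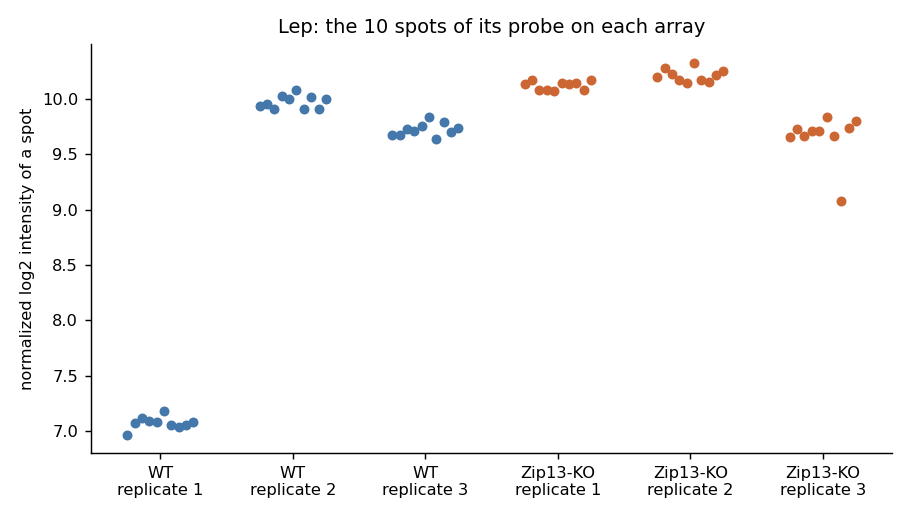
Normalized log2 intensity (y axis) of each of the 10 spots of the Lep probe on the 6 arrays (x axis; WT blue, Zip13-KO orange). The spots of WT replicate 1 lie between 6.97 and 7.18, and the lowest spot of any other array is at 9.08, in Zip13-KO replicate 3.

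Rbp4 (NM_001159487) encodes the carrier of retinol in blood. It was 14.33, 15.05 and 15.15 in WT and 15.76, 15.82 and 15.59 in Zip13-KO arrays, with no overlap and with WT replicate 1 again the lowest. The log2 fold change was 0.88 (SE 0.23, 95% CI 0.33 to 1.43, adjusted p = 0.0292, limma). Without WT replicate 1 it was 0.62 and still called (adjusted p = 0.0126). The call of Rbp4 stood under 12 of 18 other settings. It was lost without Zip13-KO replicate 1, 2 or 3 (0.86, 0.83 and 0.95, adjusted p = 0.0903, 0.091 and 0.0618). It was also lost with no filter on dim probes (adjusted p = 0.0581, limma) and with a replicate block (adjusted p = 0.057, limma). The methods' t-test with Benjamini-Hochberg adjustment lost it too (adjusted p = 0.0854). Agt (NM_007428), the precursor of the angiotensin peptides that raise blood pressure, was 7.90, 8.86 and 7.90 in WT and 8.01, 7.70 and 8.93 in Zip13-KO arrays. One array of each genotype was about 1 log2 unit above the others, the genotypes overlapped fully, and the difference was -0.01 (SE 0.40, 95% CI -0.98 to 0.97, adjusted p = 0.989, limma).

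Apln (NM_013912) encodes apelin, a peptide that acts on vessels and heart through the receptor Aplnr. It was 7.67, 7.92 and 7.69 in WT and 8.67, 7.76 and 7.29 in Zip13-KO arrays. The Zip13-KO arrays lay on both sides of the WT arrays, and the difference of 0.15 (SE 0.34, 95% CI -0.68 to 0.97, adjusted p = 0.759, limma) was -0.23 without Zip13-KO replicate 1. Nampt (NM_021524), also called visfatin, makes nicotinamide mononucleotide, a step toward NAD, inside cells and is secreted by fat. It was 11.15, 11.54 and 11.65 in WT and 11.83, 12.01 and 12.01 in Zip13-KO arrays, all of the latter higher. The difference of 0.51 (SE 0.15, 95% CI 0.15 to 0.86, adjusted p = 0.0416, limma) was 1.42-fold and thus not called. Without WT replicate 3 it reached 0.61 and was called (adjusted p = 0.0348). The adjusted p of Nampt rose above 0.05 without WT replicate 2 (0.55, adjusted p = 0.0692) and without Zip13-KO replicate 1, 2 or 3 (0.57, 0.48 and 0.48, adjusted p = 0.0804, 0.12 and 0.111). It was also above 0.05 with no filter on dim probes (0.071, limma), in the fit over kept probes (0.05025, limma) and by the methods' t-test with Benjamini-Hochberg adjustment (0.0951). Angptl4 (NM_020581), an inhibitor of lipoprotein lipase that is induced by fasting, was 15.53, 15.88 and 15.56 in WT and 15.82, 15.53 and 15.49 in Zip13-KO arrays. Its genotypes overlapped, and the interval of its difference, -0.05 (SE 0.14, 95% CI -0.39 to 0.29, adjusted p = 0.80, limma), lay within 1.5-fold in either direction.

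Nrg4 (NM_032002) encodes neuregulin 4, an EGF-like ligand of the receptor ErbB4 that is made most in brown fat. Its brighter probe, A_55_P2185900, was 10.57, 11.08 and 11.92 in WT and 13.13, 12.92 and 12.78 in Zip13-KO arrays. Even the dimmest Zip13-KO value exceeded the brightest WT value, that of replicate 3, and the log2 fold change was 1.75 (SE 0.33, 95% CI 0.94 to 2.56, adjusted p = 0.0131, limma). The second probe, A_55_P2185905, was 9.97, 10.17 and 10.96 in WT and 12.01, 11.91 and 11.85 in Zip13-KO arrays, the same order of arrays. Its log2 fold change was 1.56 (SE 0.26, 2.94-fold, adjusted p = 0.0122 over the 33039 kept probes, limma), and that of the first probe in the same fit had an adjusted p of 0.0163. At the probe level 3 of 11 kept member probes were called higher, these 2 and that of Rbp4, and 0 lower, beside 8.37% and 7.04% of all kept probes. The call of Nrg4 stood under 16 of 18 other settings. It was lost without Zip13-KO replicate 1 (1.66, adjusted p = 0.0524) and by the methods' t-test with Benjamini-Hochberg adjustment (adjusted p = 0.0524).

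Fgf21 (NM_020013), an endocrine factor of liver and of active brown fat that acts through the co-receptor Klb, was near the limit of detection. It was well above background on 0 WT and on 2 Zip13-KO arrays, and so was not tested. The measured values were 1.25, 1.23 and 2.01 in WT and 3.96, 4.75 and 3.03 in Zip13-KO arrays, with means of 1.497 and 3.914. The lowest value well above background was 3.22 to 3.30 on the WT arrays. With the WT values raised to that bound and the Zip13-KO values as measured, Fgf21 was 1.57-fold higher in Zip13-KO. Zip13-KO replicate 3, at 3.03, was itself under the lowest such value of its array, 3.81. The 1.57-fold is therefore not a firm lower bound. In intensity units the processed signals were 2.24, 2.10 and 4.62 in WT and 14.0, 25.6 and 7.55 in Zip13-KO.

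In all 9 members tested, WT replicate 1 was the lowest of the WT arrays. Summed over the 9 members, the intensity was 221928, 315655 and 292720 in WT and 368418 to 397469 in Zip13-KO arrays. Among WT arrays, markers of fat cells in general had the same order. The 12 genes of that list summed to 323246, 465420 and 439546 in WT and 563879 to 592082 in Zip13-KO. Of these, 12 of 12 were detected and had Zip13-KO values wholly above WT values, beside 29.1% of all genes. Called higher were 5 of 12, beside 10.4% of all genes. The median log2 fold change was 0.73, with a range from 0.21 for Fabp4 to 1.29 for Trarg1. Brown and beige markers summed to 37869 to 59748 in WT and 163890 to 253190 in Zip13-KO arrays, with 9 of 10 called higher and a median of 2.22. The 9 include Elovl3, which was well above background on 2 WT arrays and passed the filter only through the Zip13-KO arrays. It thus had to be high there, which limits what its call can show. With only probes well above background on all 6 arrays, the median of the list was 2.20.

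Markers of other cells also differed. Beside the counts that follow, 8.36% of all genes were called lower and 10.4% higher. Macrophage markers summed to 80614 to 129916 in WT and 39030 to 49507 in Zip13-KO arrays, with 7 of 10 called lower and a median of -1.23. Stromal and fibroblast markers summed to 477327, 324047 and 228778 in WT and 193619 to 237532 in Zip13-KO arrays, so that these sums overlapped, and 4 of 10 were called lower. WT replicate 1 thus had the lowest summed level of adipokines and of fat cell markers and the highest of stromal and macrophage markers. Neutrophil markers had 3 of 7 called lower and endothelial markers 3 of 8 called higher. Lymph node, skeletal muscle and mammary epithelium markers had 0 of 7, 0 of 8 and 0 of 5 called at the combined threshold. Of the lymph node markers, 6 of 7 had all Zip13-KO values under all WT values, beside 25.9% of all genes, with a median of -0.40. By adjusted p alone 2 of 7 were lower, beside 15.1% of all genes. Of the mammary markers, the milk protein genes Csn3 and Wap were above background on 0 arrays. The part of these marker levels in the adipokine differences was not tested. In bulk tissue, fewer cells of a type and less RNA per cell cannot be told apart.

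**Figure D4:**
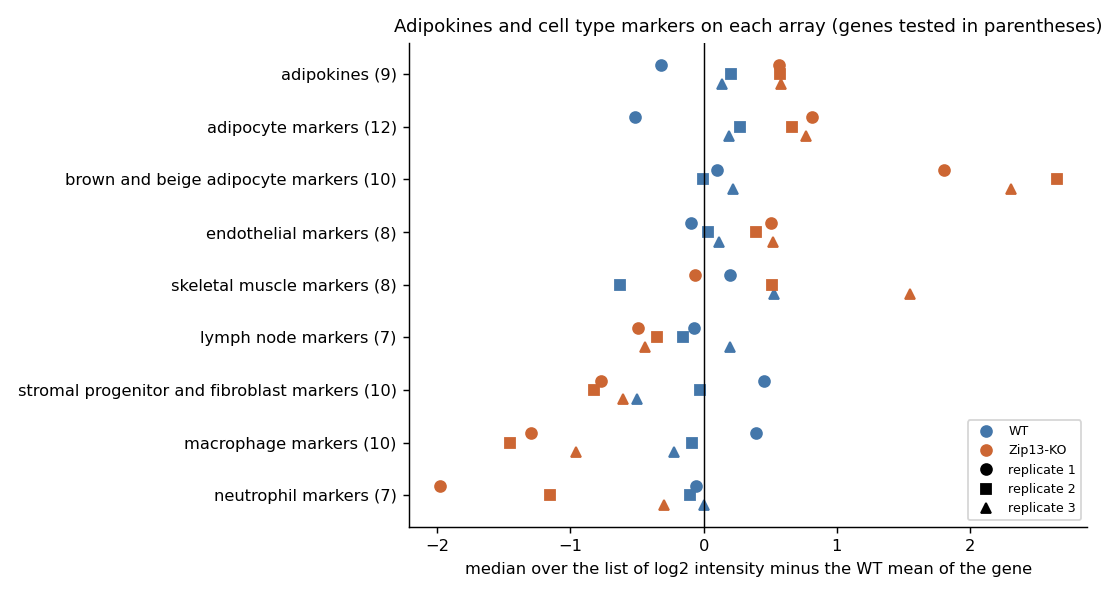
For the 9 adipokines and 8 marker lists (y axis, genes tested in parentheses), the median over the list of log2 intensity minus the WT mean of each gene (x axis), for each WT (blue) and Zip13-KO (orange) array. Among WT arrays, replicate 1 is lowest for adipokines (-0.32) and adipocyte markers (-0.51) and highest for macrophage (0.39) and stromal (0.45) markers.

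Genes around the adipokines were described from 12 lists of receptors, enzymes, relatives and regulators, 120 genes in all, of which 101 were tested. Of these, 19 were called higher and 9 lower, beside 10.4% and 8.36% of all genes tested, with a median log2 fold change of 0.04. The same shares stand beside the counts of the lists below. The 9 include Nrg1 and Il1rn, which passed the filter only through the WT arrays. Of the 28 called genes, 12 stayed called under every other setting: Adipor2, Apoc3, C1qtnf9, C1qtnf12, Ccl2, Gpihbp1, Metrnl, Mme, Nmnat1, Ppara, Ppargc1a and Vegfa. Leaving out each array in turn also kept the calls of C1qtnf4 and Il1rn. For Il1rn this shows little, since it was above background on 0 Zip13-KO arrays and was selected through its WT values.

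Among 10 receptors and co-receptors tested, 3 were called higher and 2 lower, beside 10.4% and 8.36% of all genes. Adipor2, a receptor of adiponectin, was 15.28, 15.65 and 15.91 in WT and 16.46, 16.46 and 16.49 in Zip13-KO arrays, a log2 fold change of 0.86 (adjusted p = 0.0127, limma). Adipor1, the other classical receptor, differed by 0.28 (adjusted p = 0.0429) and was not called. The apelin receptor Aplnr rose by 0.80 (adjusted p = 0.0288), a call lost without Zip13-KO replicate 1 or 3 (0.69 and 0.75). Klb, the co-receptor of FGF21, rose by 0.77 (adjusted p = 0.0225), which was lost without WT replicate 3 or Zip13-KO replicate 1 or 2 (0.76, 0.79 and 0.67). Stra6, the cell surface receptor of retinol binding protein, and its relative Stra6l fell by 0.78 and 0.98 (adjusted p = 0.0211 and 0.0223). Both were dim, between 4.41 and 6.01 on every array, and neither was called with another background correction (-0.27 and -0.38) or in the deposited table (-0.35 and -0.49). The call of Stra6 was also lost without WT replicate 2 or Zip13-KO replicate 1 (-0.69 and -0.80), and that of Stra6l without WT replicate 3 or Zip13-KO replicate 2 or 3 (-0.85, -0.80 and -0.93). The leptin receptor Lepr had overlapping genotypes and a difference of -0.20 (adjusted p = 0.444).

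Of 9 enzymes that make or break angiotensin peptides, 1 was called higher and 1 lower, near the shares of all genes (10.4% and 8.36%). Mme, a membrane protease also called neprilysin, rose by 0.96 (adjusted p = 0.00695, limma). Anpep fell by 0.79 (adjusted p = 0.0471), a call that was lost without any 1 of WT replicates 1 and 2 and Zip13-KO replicates 1, 2 and 3 (-0.53, -0.86, -0.83, -0.68 and -0.85). Cma1, the mast cell chymase, had the lowest fitted value of the list, -1.33, but was not called (adjusted p = 0.0719).

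In the steps of NAD synthesis that follow or run beside Nampt, 2 of 6 genes were called higher, beside 10.4% of all genes. These were the NAD-forming enzymes Nmnat1 (0.65, adjusted p = 0.00715, limma) and Nmnat3 (0.61, adjusted p = 0.00669), and Nmnat3 was at 0.56, under the fold threshold, without WT replicate 3. Qprt, which turns quinolinate into a precursor of NAD, was at -0.56 and not called (adjusted p = 0.0816). Among 6 partners of lipoprotein lipase, the enzyme that Angptl4 inhibits, Apoc3 rose by 1.40 (adjusted p = 0.0099), or 0.61 as the mean of its probes, and Gpihbp1, which anchors the lipase to the capillary wall, by 1.24 (adjusted p = 0.00993). Lpl itself was higher by 0.52 (adjusted p = 0.043), short of 1.5-fold, and Apoc2 had the lowest fitted value, -0.62 (adjusted p = 0.124). Of 8 genes that fold and release adiponectin, 0 were called, and their values ran from -0.47 for P4hb to 0.58 for Gstk1.

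Relatives of the members were mixed. In the C1q/TNF family, which shares its domain with adiponectin, C1qtnf9 rose by 1.21, C1qtnf4 by 0.85 and C1qtnf12 by 0.82 (adjusted p = 0.00479, 0.0124 and 0.00714, limma), 3 of 10 genes tested, while C1qtnf3 had a fitted value of -0.97 and was not called. C1qtnf4 was not called with another background correction (0.49). Angptl8, which is secreted after feeding and acts with its relatives on lipoprotein lipase, was 9.21, 9.68 and 10.18 in WT and 11.47, 11.60 and 10.78 in Zip13-KO arrays. It rose by 1.59 (adjusted p = 0.0139), the 1 call among 6 relatives of Angptl4, and the call was lost without Zip13-KO replicate 1 or 2 (1.499 and 1.43). The other 5 ranged down to -0.36 for Angptl7.

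Nrg1, a relative of Nrg4, was dim. It was 6.01, 4.69 and 5.00 in WT and 3.34, 3.83 and 4.05 in Zip13-KO arrays, of which 0 were above background. The fit on these values gave -1.49 (adjusted p = 0.0265, limma). With Zip13-KO values under the lowest value above background raised to it, Nrg1 was 2.68-fold lower. It had passed the filter only through the WT arrays and so had to be high there, which limits what its p can show. The fitted difference was -0.45 with another background correction (adjusted p = 0.085), which ended the call, as did leaving out Zip13-KO replicate 1, 2 or 3 (-1.29, -1.54 and -1.65), no filter (adjusted p = 0.0553) and a replicate block (adjusted p = 0.0708). The other relative tested, Nrg2, had a fitted difference of 0.08 (adjusted p = 0.837). Neither tested relative of resistin was called. Retnla, 13.23, 16.08 and 15.33 in WT and 15.14, 14.99 and 15.31 in Zip13-KO arrays, had its lowest value in WT replicate 1, as Lep did, and a difference of 0.27 (adjusted p = 0.784). Retnlg was at -1.05 (adjusted p = 0.0628). Among 6 FGF ligands, 0 were called, with fitted values from -1.03 for Fgf18 to 0.64 for Fgf10.

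Of 23 other factors secreted by fat, 5 were called lower and 1 higher, beside 8.36% of all genes called lower and 10.4% called higher. The median log2 fold change of the list was -0.68, or -0.43 without WT replicate 1. It was -0.30 with another background correction and -0.39 in the deposited table. With only probes well above background on all 6 arrays it was -0.53, and with no filter on dim probes -0.47. Il1rn and Il6 of this list passed the filter only through the WT arrays. Ccl2, the chemokine that draws monocytes into fat, was 12.66, 13.54 and 11.51 in WT and 9.62, 8.67 and 8.63 in Zip13-KO arrays, a log2 fold change of -3.60 (SE 0.55, adjusted p = 0.00805, limma). Metrnl fell by 1.66 (adjusted p = 0.006). Lcn2, which is made by fat cells and neutrophils, fell by 1.53 (adjusted p = 0.0162), a call lost without Zip13-KO replicate 1 or 2 (-1.37 and -1.44). The stress-induced hormone Gdf15 fell by 2.39 (adjusted p = 0.0274), and its call was lost without WT replicate 3 or Zip13-KO replicate 1, 2 or 3 (-2.47, -2.72, -2.34 and -2.10). Il1rn was above background on 0 Zip13-KO arrays. The fit on these values gave -2.355 (adjusted p = 0.00757, limma). With the Zip13-KO values raised to the lowest value above background, Il1rn was 1.91-fold lower. It had passed the filter only through the WT arrays and so had to be high there, which limits what its p can show. It was not called with another background correction (-0.36) or in the deposited table (-0.52), both short of 1.5-fold. Macrophages, whose summed marker level was also lower in Zip13-KO arrays as given above, express several of these genes too, and that part was not tested. Vegfa, which drives growth of vessels, rose by 1.06 (adjusted p = 0.00954). Cfd, the adipokine adipsin, was 17.39 to 17.49 on every array.

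**Figure D5:**
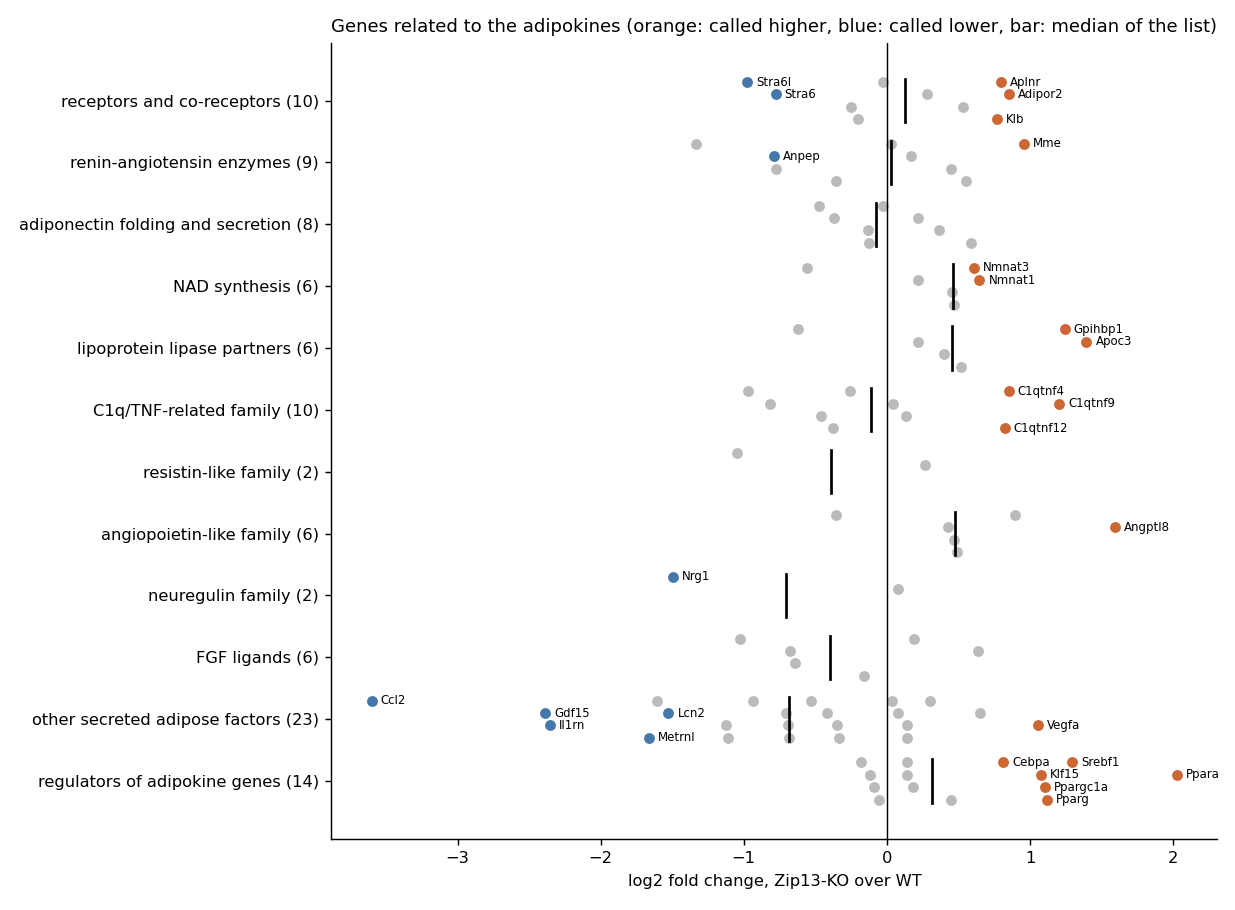
Log2 fold change (x axis, Zip13-KO over WT) of each tested gene in 12 lists related to the adipokines (y axis, number tested in parentheses; genes called higher in orange and lower in blue are named, others are gray, and the black bar is the median of the list). The regulators hold 6 genes called higher and 0 lower, and the other secreted factors 1 higher and 5 lower.

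Of 14 regulators of adipokine genes, 6 were called higher and 0 lower, beside 10.4% and 8.36% of all genes, with a median of 0.32. Ppara, a receptor for fatty acids that drives their oxidation, was 9.00, 9.55 and 10.15 in WT and 11.56, 11.97 and 11.25 in Zip13-KO arrays, a log2 fold change of 2.03 (SE 0.32, adjusted p = 0.00907, limma). Pparg, the main regulator of fat cell formation and of Adipoq, was 12.57, 13.04 and 13.19 in WT and 14.26, 13.70 and 14.18 in Zip13-KO arrays, and rose by 1.12 (adjusted p = 0.0136). Ppargc1a, a coactivator of mitochondrial genes, rose by 1.104 (adjusted p = 0.00696). Cebpa, which binds the TTGCNNAA core marked in the promoters above, rose by 0.81 (adjusted p = 0.027). Of the other C/EBP factors listed, Cebpb was higher by 0.45 (adjusted p = 0.017), below the 1.5-fold threshold and not called. Cebpd had overlapping genotypes and a difference of -0.09 (adjusted p = 0.677). Whether any of these factors acts on the marked promoters was not tested. The other called regulators were Srebf1 (1.29, adjusted p = 0.0438) and Klf15 (1.08, adjusted p = 0.0171), and the lowest fitted value was that of Atf4, -0.18. Calls were lost without Zip13-KO replicate 1 for Pparg (1.01) and without any 1 Zip13-KO array for Cebpa (0.77, 0.82 and 0.85), Klf15 (1.14, 1.11 and 0.99) and Srebf1 (1.35, 1.25 and 1.28), and that of Srebf1 also without WT replicate 3 (1.33).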

How the data were processed

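RNA of 3 WT and 3 Zip13-KO iWAT samples was hybridized to 6 Agilent SurePrint G3 Mouse GE 8x60K arrays, all on 1 slide and in 1 scan. The authors' scanner files (Feature Extraction 11.5.1.1) hold, for each spot, a processed intensity with background and spatial trend removed. The authors also deposited a table of log2 median intensity, quantile normalized and not corrected for background, as found by setting it against the scanner values; it served as an alternative. Their methods name quantile normalization, a mixture-model filter for expressed probes, an integrative test of t and median ratio, and a 1.5-fold threshold.

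Here log2 of the processed intensity was quantile normalized over all spots that were not controls, outlier spots were dropped and the spots of a probe averaged. A probe counted as well above background where no more of its spots failed that test than passed it. Probes were named by RefSeq accession (GRCm38.p6, 28331 of 55681 probes), and the brightest kept probe stood for a gene. Genes were tested with limma 3.58.1 (lmFit, eBayes) in R 4.3.3. The number of arrays limits the precision.

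The members, gene lists and tests were chosen with earlier results of these data known. Named are all members and, from each list, up to 4 called genes by size plus the largest and smallest fitted change. Adipor1, Klb, Lepr, Lpl, Cebpa, Cebpb, Cebpd, Klf15, Lcn2 and Cfd were named after their values were seen. A gene of these lists is not reported here and was left out of their counts. Alternatives were the 75th percentile of each array in place of quantile normalization, normexp (offset 50, on the median signal, as the files hold no mean signal), the deposited table, no or a stricter filter, the mean of probes, eBayes with a robust prior and intensity trend, the methods' t-test, no fold threshold, a replicate block, and each array left out. Averaging spots before normalization was added after the data were seen. A slide block was not run. The limma steps were tested on simulated data.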

Additional observations from a re-analysis of the deposited data

How the results depend on the processing

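The 3 adipokine calls (all higher) became 5 with no fold threshold, 0 by the methods' t-test with Benjamini-Hochberg adjustment and 0 to 3 with 1 array left out, and the 3 probe calls became 5, 1 and 1 to 4. Calls of related genes (19 higher, 9 lower) became 12 and 3 by the adjusted t-test, 12 to 23 and 4 to 18 with 1 array left out (12 and 4 without Zip13-KO replicate 1, 16 and 18 without WT replicate 3, 15 and 4 without Zip13-KO replicate 2), and 31 higher with no fold threshold. Without Zip13-KO replicate 1, 0 members were called. With no filter on dim probes, Nrg4 stayed called, and Rbp4 (adjusted p = 0.0581) and Retn (adjusted p = 0.0814) did not. That fit also passed Fgf21, but its WT values and Zip13-KO replicate 3 were below background, so the size of its change is not fixed. Slc39a13 stayed called under every setting (-4.45 to -4.16 with 1 array left out). All-gene calls without Zip13-KO replicate 1 were 966 higher and 770 lower, without Zip13-KO replicate 2 they were 1023 and 795, and by the adjusted t-test 1008 and 707, against 1585 and 1279. With no fold threshold they were 2948 and 2317.

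Of the members that were not called, Agt turned to 0.31 without WT replicate 2, 0.09471 when Zip13-KO replicate 1 was left out and 0.25 when replicate 2 was (range -0.37 to 0.31). Angptl4 turned to 0.0138 with the 75th percentile, 0.0629 without WT replicate 2 and 0.0118 without Zip13-KO replicate 3 (range with 1 array left out -0.15 to 0.0629), and Apln to -0.23 without Zip13-KO replicate 1 (range -0.23 to 0.46). The cause was not tested. Scaling moved the median of all genes by 0.02 at most. Scaling by the 75th percentile moved the median of the members tested from 0.51 to 0.58 and that of the adipocyte markers from 0.73 to 0.85.

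Same-numbered replicates shared little deviation over all genes (correlations of same-numbered deviations -0.02, 0.04 and -0.08). These correlations cannot exclude that the samples were paired. With a replicate block, 1 adipokine gene, Nrg4, and 1 probe were called.

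No spot was saturated, and among the members depth limited Fgf21 only, which was at background in WT. With 3 arrays per genotype, intervals as wide as those of Lep, Agt and Apln leave changes of over 1.5-fold in either direction undetected.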

Other observations

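Across the 6 arrays, the genes whose log2 values followed Nrg4 most closely among the 15306 other genes tested were Kifc2 (Pearson's r = 0.999), Cdkn2aip (0.998) and Trpm3 (0.998). Their log2 fold changes were 0.83, 0.58 and 0.52. Those that followed Lep, chosen after its values were seen, were Trim67 (0.994), Mbd6 (0.988) and Zfp317 (0.987). Their log2 fold changes were 0.94, 0.06 and 0.13, and none of these was called. With 6 arrays that share 2 genotypes and 1 low WT array, and the highest r picked from all genes, these values are a description.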
